A study of Mus musculus with 41 samples.

Results

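The 10 genes described here encode the ErbB receptors (Egfr, Erbb2, Erbb3 and Erbb4) and EGF-family ligands (Egf, Tgfa, Hbegf, Ereg, Btc and Nrg1), and were taken by symbol from the 47480 gene symbols measured in 41 mouse mammary tumors. All 10 were listed, and 9 of them had a mean of at least 10 over the tumors and entered the test across genes. Erbb4 had a mean of 9.11 and was tested alone. Of the tumors, 28 were labelled as lacking both Plk2 and p53 (named PLK2null) and 13 as lacking p53 alone (named p53null), so that loss of p53 was common to every label. The label of 1 of the 13, p53null-7435, is in doubt, because its Plk2 level lay among those of the PLK2null tumors. They were Balb/c mammary tumors grown in the mammary fat pad of syngeneic hosts without treatment, and the series is described as serially transplanted, although the study follows 7 of the PLK2null numbers as primary tumors. The PLK2null tumors began as mammary epithelium of mutant mice placed in cleared fat pads of wild-type hosts, so host cells in these tumors still carried both genes. The age of the mice was not given in the sources used here. The labels do not say which tumors arose separately, so the p-values measure the spread between these tumors and treat each as independent. The most alike pairs by Pearson r of log2 values were PLK2null pairs, among them PLK2null-1986 with PLK2null-1985 and PLK2null-733 with PLK2null-732 (both 0.986). Tumors of shared origin would make the p-values too small, and shared origin was not tested. The titles of all 13 p53null libraries carry the tag ROSEN and none of the PLK2null titles does, so library series and genotype cannot be told apart.

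ErbB receptors are tyrosine kinases of the cell surface that act in pairs. EGF, TGF-alpha, HB-EGF, epiregulin and betacellulin bind EGFR, some of them also ERBB4, and neuregulins bind ERBB3 and ERBB4. ERBB2 has no known ligand of its own and ERBB3 has little kinase activity, so the pair they form joins a sensor to an enzyme. In the mammary gland the family is known for its part in duct growth, milk secretion and, for ERBB2, a class of human breast cancer.

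The promoters of 3 members are shown because Egf was the member called between the genotypes, Erbb2 was one of the 2 main receptors, and Tgfa was the ligand with the highest median level per length. Sequences are the 250 bases before the RefSeq start on GRCm38.p6, read on the strand of the gene, and RefSeq promoters were found for 6 of the 10 members. They cover chr3:129755323-129755572 on the minus strand for Egf, chr11:98412234-98412483 on the plus strand for Erbb2 and chr6:86194972-86195221 on the plus strand for Tgfa. Capitals mark matches on either strand to any of 5 motifs, which are spelled out after the sequences.
Egf: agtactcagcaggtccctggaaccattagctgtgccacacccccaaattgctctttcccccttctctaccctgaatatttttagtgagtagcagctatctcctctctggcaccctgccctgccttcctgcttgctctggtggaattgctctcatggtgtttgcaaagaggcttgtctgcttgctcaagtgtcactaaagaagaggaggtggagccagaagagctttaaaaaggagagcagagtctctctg
Erbb2: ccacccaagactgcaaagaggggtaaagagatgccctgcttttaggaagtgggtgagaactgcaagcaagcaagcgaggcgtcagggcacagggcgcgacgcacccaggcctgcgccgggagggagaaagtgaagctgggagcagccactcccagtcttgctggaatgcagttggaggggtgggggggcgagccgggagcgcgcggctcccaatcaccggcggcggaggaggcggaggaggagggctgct
Tgfa: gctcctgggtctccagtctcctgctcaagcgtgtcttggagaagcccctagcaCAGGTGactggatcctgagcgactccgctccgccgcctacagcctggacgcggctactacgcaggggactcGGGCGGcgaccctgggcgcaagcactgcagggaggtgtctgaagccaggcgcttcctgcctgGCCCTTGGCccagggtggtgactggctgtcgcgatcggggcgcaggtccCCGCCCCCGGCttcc
The Tgfa promoter held 2 GC boxes, 2 AP-2 motifs and 1 E-box, and its second GC box overlaps the second AP-2 motif. The Egf and Erbb2 promoters held none of the 5 motifs in this window. The GC box, bound by Sp1-type factors, was searched as GGGCGG and was found in 32.9% of 27025 promoters of this length. The AP-2 motif was searched as GCCNNNGGC and was found in 13.6% of these promoters. The AP-1 motif was searched as TGANTCA and was found in 6.87% of the same promoters. The E-box that ZEB and Snail factors bind was searched as CACCTG and was found in 17.1% of them. The TATA box was searched as TATAAA and was found in 13% of all promoters of this length. Bases G and C made up 50.4% of the Egf window, 66% of Erbb2 and 69.2% of Tgfa, beside a median of 52.0%.

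Values below are normalised read counts, on a scale where 1000 marks the upper quartile of the detected genes of a tumor, and differences are PLK2null minus p53null in the mean of log2(value + 1). A tumor held 29409609 to 70868124 fragments on genes, with a median of 39053966 in PLK2null and 58042777 in p53null tumors and overlapping ranges. The median value of a single read was 0.654 in PLK2null and 0.469 in p53null tumors. The part of this depth difference in the results was not tested. A single read was worth 0.388 to 0.817 units, and 3 reads, the floor of detection used here, 1.16 to 2.45, which covers counting error only. Plk2 itself, the deleted kinase gene, was 36.6 to 553 in PLK2null (median, 284) and 186 to 8028 in p53null tumors (median, 3402), a difference of -3.39 (SE, 0.377; limma adjusted p = 1.30e-09). The value of 186 came from the library labelled p53null-7435, which 22 of the 28 PLK2null tumors exceeded, and the next p53null value was 921. Several tumors stood apart in their markers. The study named PLK2null-732, PLK2null-733, PLK2null-743 and T11 claudin-low, a class with low epithelial genes, from expression of the tumors, so contrasts with that class are given without a test. Summed epithelium markers (5 genes) were 55.9 to 309 in the 3 PLK2null tumors of that class, 33782 in T11 and 17453 in PLK2null-7763. In the same 3 PLK2null tumors the endothelium sum (6 genes) was 165585 to 186496 and the adipocyte sum (5 genes) 99137 to 124735, beside medians of 4889 and 827 over all PLK2null tumors. PLK2null-7763 also held an endothelium sum of 78025 and an adipocyte sum of 52117. No marker of these 3 lists was at 0 in all tumors of a group, and the part of the marker genes in the results was not tested. In bulk tumors, fewer cells of a type and less RNA per cell cannot be told apart.

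Of the 9 members tested, 1 differed between the genotypes, Egf, which was higher in PLK2null tumors. Across all 17208 genes tested 39.5% were called at an adjusted p below 0.05, and 24.3% were called higher in PLK2null. The member count of 1 in 9 is 11.1%, and its difference from that background was not tested. The median difference of the 9 members was -0.27, beside 0.10 for all genes tested. The genotypes overlapped in every member. The share of all genes tested that overlap was not counted, so this is no result particular to the members.

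**Figure D1:**
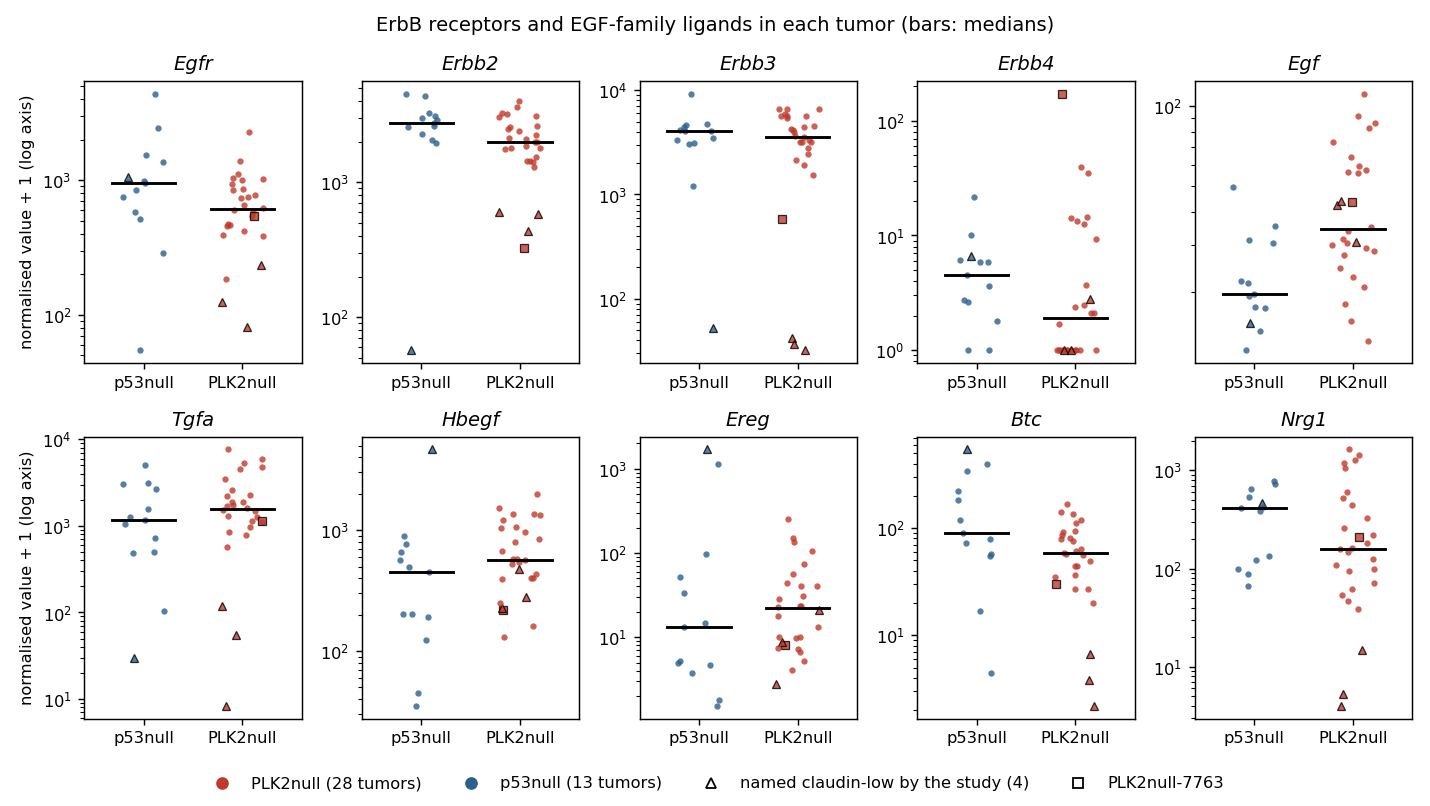
Normalised value + 1 of each member (log axis) in every tumor, p53null in blue and PLK2null in red, with bars at the medians, triangles for the 4 tumors named claudin-low by the study and squares for PLK2null-7763. Erbb3 was 31.2 to 40.8 in the 3 PLK2null triangles and 51.5 in T11, and the Egf median was 33.5 in PLK2null beside 18.6 in p53null.

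Egfr, the receptor of EGF and TGF-alpha (chr11:16752203-16918158, plus strand), ranged from 80.2 to 2279 in PLK2null tumors (median, 611) and from 53.4 to 4387 in p53null tumors (median, 953). Its difference was -0.52 (SE, 0.398; limma adjusted p = 0.315), within the spread of the tumors. Both ends of the range lay in the p53null group, with p53null-10151 at 4387 and p53null-2208L at 53.4. The 3 claudin-low PLK2null tumors were low, at 80.2, 122 and 234, whereas T11 was 1050, and without these 4 tumors the difference was -0.23 (limma adjusted p = 0.640). In p53null-10151 the 12 tested neighbours within 500 kb of Egfr had a median deviation of 0.51 on the log2 scale from their own medians, beside 2.57 for Egfr. One neighbour, Ppp3r1, was 6245 there and 2655 at its median. Egfros, an antisense gene inside Egfr, was 125 in the same tumor. The counting is not stated to use strand, and the exon bases that Egfros shares with Egfr were not computed. Reads from any such shared bases cannot be told apart between the 2 genes.

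Erbb2, which encodes the receptor with no known ligand (chr11:98412470-98437716, plus strand), was one of the 2 most abundant receptors per length. It ranged from 326 to 4026 in PLK2null (median, 1992) and from 55.8 to 4523 in p53null tumors (median, 2758). The difference was -0.27 (SE, 0.385; limma adjusted p = 0.615), and 11 of 13 p53null tumors lay above the PLK2null median. The lowest value was that of T11, 55.8, and the next p53null value was 1956. Without T11 the difference was -0.70 (SE, 0.269; limma adjusted p = 0.0340), so that this tumor decided the call. Without PLK2null-7763 and all 4 claudin-low tumors it was -0.39 (limma adjusted p = 0.0446), and with PLK2null-7763 kept it was -0.50 (limma adjusted p = 0.0646). No tumor stood far above the rest, and the highest, 4523 in p53null-2208L, was 1.01 on the log2 scale above the median of all 41 tumors. Mien1, which shares 9 bases at its end with Erbb2 on the other strand, was 1628 ± 820 (SD, n = 13) in p53null and 901 ± 264 (SD, n = 28) in PLK2null tumors.

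Erbb3, which encodes the neuregulin receptor with little kinase activity (chr10:128567523-128589652, minus strand), did not pass the test between genotypes but varied over tumors more than 91.6% of the genes tested. It ranged from 31.2 to 6642 in PLK2null (median, 3583) and from 51.5 to 9205 in p53null tumors (median, 4029). The difference was -0.30 (SE, 0.689; limma adjusted p = 0.766). The values fell into separate ranges. The 3 claudin-low PLK2null tumors held 31.2, 36.1 and 40.8 and T11 held 51.5, then came PLK2null-7763 at 577 and p53null-10152 at 1192, and the other 35 tumors lay at 1522 or above. Without the 4 claudin-low tumors the difference was -0.06 (limma adjusted p = 0.868).

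Erbb4, the receptor of neuregulins and of several EGF-type ligands (chr1:68032186-69108059, minus strand), was hardly detected. It was at 0 in 15 tumors, and 23 of the 41 tumors were at or below the floor of 3 reads. Its range was 0 to 170.5 in PLK2null (median, 0.891) and 0 to 20.8 in p53null tumors (median, 3.51). The difference of -0.39 had a two-sided permutation p of 0.543. PLK2null-7763, with 170.5 or 311 reads, stood far above the next tumor, PLK2null-1964 at 38.7. The only tested neighbour within 500 kb lay below its own median in PLK2null-7763, by -0.94 on the log2 scale.

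Set per kilobase of exon, the receptors had the same order in both genotypes. The median level per kb over all tumors was 599 for Erbb3, 431 for Erbb2, 65.3 for Egfr and 0.120 for Erbb4, and the ranges of Erbb3 and Erbb2 overlapped. Erbb3 was the highest receptor in 31 tumors, Erbb2 in 9 and Egfr in 1, with the same counts for the longest coding transcript as length. Erbb2 led in the 3 claudin-low PLK2null tumors and in PLK2null-1963, PLK2null-1964, PLK2null-1973, p53null-10152, p53null-2396R and p53null-5329. T11 was the tumor led by Egfr, which made up 82.5% of its summed receptor level per kb. Over all tumors Erbb2 and Erbb3 together made up 17.1 to 99.8% (median, 94.0%).

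**Figure D2:**
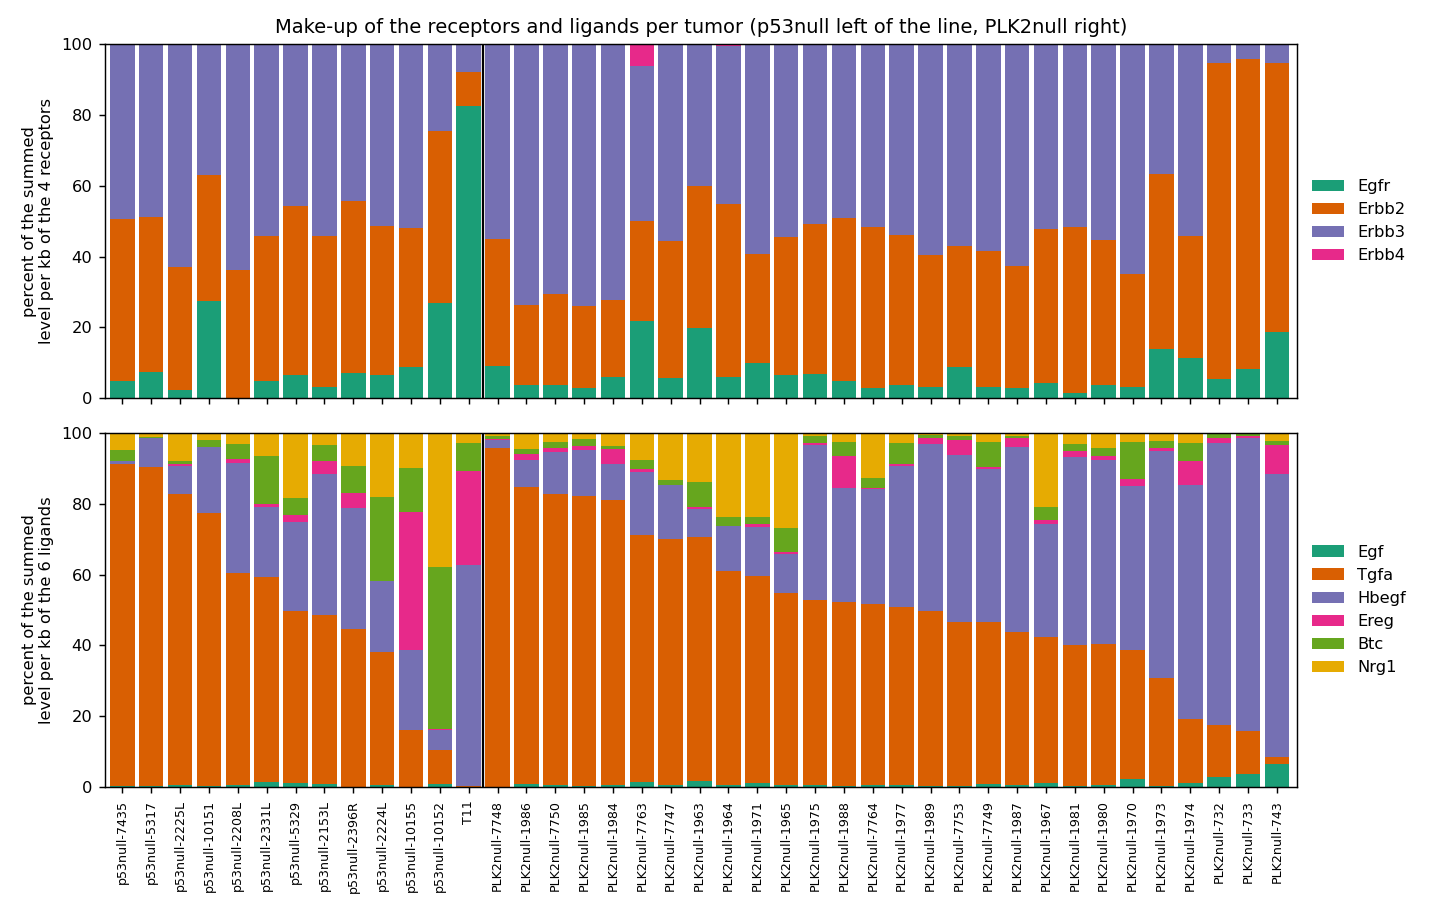
Share of each receptor (top) and each ligand (bottom) in the summed level per kb of exon, in percent, for every tumor, p53null left of the line and PLK2null right of it, each group ordered by the Tgfa share. Tgfa ranged from 0.285 to 95.7% of the 6 ligands, and Egfr made up 82.5% of the receptors in T11.

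Egf, the founding ligand (chr3:129677565-129755316, minus strand), rose in PLK2null tumors but from a low level. It was 12 to 110 in PLK2null (median, 33.5; mean, 44.1 ± 25.5, SD, n = 28) and 11.1 to 48.7 in p53null tumors (median, 18.6; mean, 22.5 ± 10.5, SD, n = 13). Of the PLK2null tumors 25 lay above the p53null median and 10 above every p53null tumor, with PLK2null-1986 highest. The difference was 0.84 (SE, 0.247; limma adjusted p = 0.00591), and 25.9% of the genes tested differed by more in size. Taken relative to the median of all genes, which was 0.10 here and -0.00488 after quantile normalization, it was 0.74. The call held when any single tumor was left out (0.77 to 0.94, adjusted p from 0.00224 to 0.0141), the library labelled p53null-7435 among them. It was lost after quantile normalization (0.53, limma adjusted p = 0.0725) and with only the 7 PLK2null tumors that the study follows by number as primary tumors (0.45, limma adjusted p = 0.370). A tumor held 16 to 169 reads of Egf, with a median of 49.0. Median depth was lower in PLK2null tumors, and its part in the Egf difference was not tested. The antisense genes inside Egf, Gm42697, Gm42650 and 6330410L21Rik, had means of 0.426, 0 and 0.0249.

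Tgfa, the EGFR ligand TGF-alpha (chr6:86195223-86275719, plus strand), ranged from 7.34 to 7665 in PLK2null (median, 1564) and from 28.6 to 5001 in p53null tumors (median, 1167). The difference was 0.51 (SE, 0.679; limma adjusted p = 0.586). The 4 claudin-low tumors and p53null-10152 were low, at 7.34, 53.9 and 117 in the PLK2null tumors, 28.6 in T11 and 103 in p53null-10152, and the other 36 tumors lay at 483 or above. The highest values were those of PLK2null-7748 at 7665, PLK2null-1986 at 5890, PLK2null-7750 at 5287 and the library labelled p53null-7435 at 5001. In PLK2null-7748, 20 of the 22 tested neighbours within 500 kb lay above their own medians, 4 were at their highest of the 41 tumors, and their median deviation was 0.81 beside 2.38 for Tgfa. The 4 were Alms1, Dusp11, Tia1 and Gmcl1. Gm43917, an antisense gene inside Tgfa, was 36.2 in that tumor.

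Hbegf, the heparin-binding EGFR ligand (chr18:36504927-36515805, minus strand), ranged from 130 to 2009 in PLK2null (median, 569) and from 34.3 to 4655 in p53null tumors (median, 452). The difference was 0.84 (SE, 0.445; limma adjusted p = 0.130). The highest tumor, T11, was p53null, and the next p53null value was 893 in p53null-2396R. The 3 lowest tumors were p53null as well, the library labelled p53null-7435 (34.3), p53null-10152 (44.1) and p53null-2331L (122). Without T11 the difference was 1.17 (SE, 0.409; limma adjusted p = 0.0203), and without all 4 claudin-low tumors 1.27 (limma adjusted p = 0.0135). Without the library labelled p53null-7435 it was 0.58 (limma adjusted p = 0.293). In T11 the 21 tested neighbours within 500 kb had a median deviation of -0.51 on the log2 scale, beside 3.085 for Hbegf.

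Ereg, the ligand epiregulin (chr5:91074622-91093646, plus strand), was low in most tumors and high in 2. It ranged from 1.80 to 252 in PLK2null (median, 20.9) and from 0.532 to 1693 in p53null tumors (median, 12.2). T11 held 1693 and p53null-10155 held 1139, and no other tumor exceeded 252. The difference was 0.09 (SE, 0.746; limma adjusted p = 0.942), and its sign changed with the pseudocount and the scaling. In T11, 8 of the 13 tested neighbours within 500 kb lay above their own medians, with a median deviation of 0.28 beside 6.57 for Ereg. The ligand genes among these neighbours were Areg (1745), Btc (541) and Epgn (13.4). In p53null-10155 Areg was 6903 and Btc 397.

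Btc, the ligand betacellulin (chr5:91357261-91402994, minus strand), ranged from 1.2 to 169 in PLK2null (median, 57.5) and from 3.49 to 541 in p53null tumors (median, 88.1). The difference was -1.03 (SE, 0.536; limma adjusted p = 0.125), and 5 of 13 p53null tumors lay above every PLK2null tumor. The lowest p53null tumor was p53null-5317 at 3.49, and without it the difference was -1.39 (SE, 0.500; limma adjusted p = 0.0249). The 3 claudin-low PLK2null tumors held 1.2, 2.82 and 5.73, whereas T11 was the highest tumor, and without these 4 tumors the difference was -0.39 (limma adjusted p = 0.480).

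Nrg1, which encodes neuregulin 1, a ligand of ERBB3 and ERBB4 (chr8:31814551-32884029, minus strand), ranged from 3.0 to 1632 in PLK2null (median, 158) and from 65.5 to 771 in p53null tumors (median, 414). The difference was -0.83 (SE, 0.654; limma adjusted p = 0.324). Without the 4 claudin-low tumors it was -0.23 (limma adjusted p = 0.752). PLK2null tumors lay at both ends, 5 of them above and 7 below every p53null tumor. The 5 were PLK2null-1964 (1632), PLK2null-1971 (1444), PLK2null-1965 (1274), PLK2null-1967 (1192) and PLK2null-7747 (1053). The 3 claudin-low PLK2null tumors were the lowest, at 3.0, 4.3 and 13.8, and T11 held 459. Gm26578, an antisense gene inside Nrg1, followed it with Pearson r = 0.84 over the 41 tumors.

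Differences of the 9 members and their intervals are shown together. Egf had the smallest standard error of the 9, and the intervals of the other 8 included 0.

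**Figure D3:**
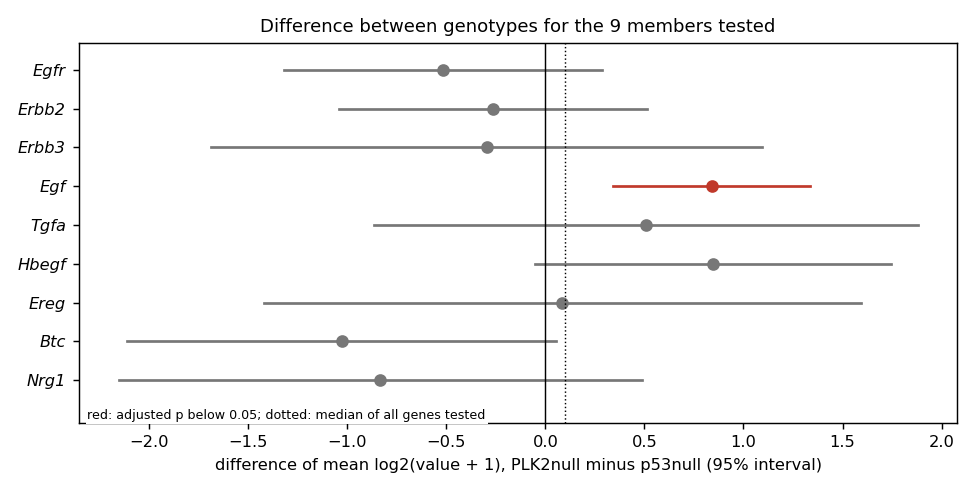
Difference of mean log2(value + 1), PLK2null minus p53null, with 95% intervals from limma for the 9 members tested, red where the adjusted p was below 0.05. The dotted line is the median of all genes tested, 0.10, and the interval of Egf ran from 0.34 to 1.34.

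Among the ligands the median level per kb of exon over all tumors was 227 for Tgfa, 113 for Hbegf, 17.3 for Nrg1, 13.8 for Btc, 4.08 for Ereg and 2.62 for Egf. Neighbours in this order overlapped in range. Tgfa was the highest of the 6 ligands in 28 tumors and Hbegf in 11, among them T11 and all 3 claudin-low PLK2null tumors. Ereg led in p53null-10155 and Btc in p53null-10152. The margin between the 2 main ligands depended on the length used. With the longest coding transcript Tgfa led in 21 tumors and Hbegf in 19, since that length is 2375 bases for Hbegf beside 4834 bases of exon. With Areg, Epgn, Nrg2, Nrg3 and Nrg4 added, Tgfa led in 16 tumors, Areg in 13, Nrg2 in 6, Hbegf in 5 and Btc in 1 by exon length. By the longest coding transcript of the same 11 ligands Hbegf led in 16 tumors, Tgfa in 14, Areg in 6, Nrg2 in 4 and Nrg1 in 1, so that the first place among the 11 changed with the length. Egf was the highest ligand in 0 tumors under either length.

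Several members varied together over the 41 tumors. The correlations below are descriptions, since related tumors and the 4 claudin-low tumors shape them. Erbb2 and Erbb3 had Pearson r = 0.81 (Spearman rho, 0.58), which was 0.68 (rho, 0.43) over the 37 tumors without the claudin-low ones. Among those 37, PLK2null-7763 was lowest in both, at 326 for Erbb2 and 577 for Erbb3, and r without it was not computed. Erbb3 and Tgfa had r = 0.80 (rho, 0.30), and this was 0.26 without the 4 claudin-low tumors, so it rested on them. Hbegf and Ereg had r = 0.67 (rho, 0.67), and 0.62 without them. Btc and Nrg1 had r = 0.69 (rho, 0.56), and 0.44 without them.

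**Figure D4:**
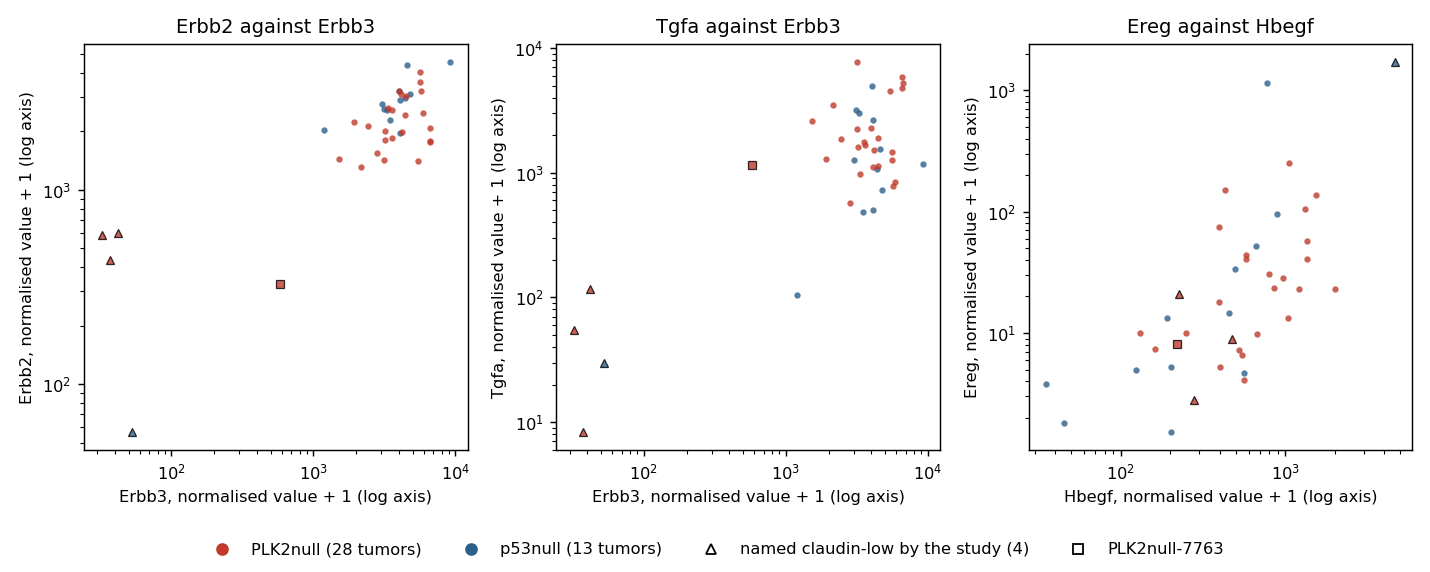
Normalised value + 1 (log axes) of 3 pairs of members in the 41 tumors, Erbb2 and Tgfa against Erbb3 and Ereg against Hbegf, PLK2null in red and p53null in blue, triangles for the 4 tumors named claudin-low and a square for PLK2null-7763. Without the triangles Pearson r of the log2 values went from 0.81 to 0.68 for Erbb2, from 0.80 to 0.26 for Tgfa and from 0.67 to 0.62 for Ereg.

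For each tested member the 3 genes with the most similar pattern were found among 14514 named genes by Pearson r of log2(value + 1). Erbb3 was followed by Esrp2, an epithelial splicing factor (r = 0.97, and 0.81 over the 37 tumors), Grb7, an adaptor of ErbB receptors (0.97 and 0.81), and Spint1, an epithelial protease inhibitor (0.97 and 0.77). Erbb2 was followed by Elmo3 (0.89 and 0.72), Sowahb (0.89 and 0.79) and the protease inhibitor gene Spint2 (0.88 and 0.62). Over the 37 tumors the tight junction genes Cldn7 (0.85) and Ocln (0.83) and then Grb7 (0.81) were nearest to Erbb2. Grb7 lies 8.68 kb from the end of Erbb2 (chr11:98446394-98455373, plus strand). Tgfa was followed by Sox10, a transcription factor of neural crest and mammary cells (0.88 and 0.60), Gyltl1b (0.87 and 0.53) and Celsr2 (0.86 and 0.61). Hbegf was followed by Fosl1, a subunit of AP-1 (0.85 and 0.83), Dhrs9 (0.81 and 0.81) and Hivep2 (0.81 and 0.83). The nearest genes of Ereg were Arhgap10 (0.74 and 0.67), the BMP antagonist gene Grem1 (0.71 and 0.70) and Serpinb2 (0.70 and 0.67). Nrg1 was followed by the adhesion gene Ncam1 (0.78 and 0.59), Rap1gap (0.76 and 0.51) and Cth (0.76 and 0.54), and Btc by the keratin gene Krt8 (0.77 and 0.60), Fam84a (0.73 and 0.46) and Ociad2 (0.73 and 0.34). Egf was followed by Taf1a (0.71 and 0.73), Zfp692 (0.69 and 0.68) and Accs (0.69 and 0.68), and Egfr by its antisense gene Egfros (0.72 and 0.65), Bmpr1a (0.69 and 0.54) and Pdpn (0.68 and 0.57).

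In a list of 35 other genes of the pathway, 13 of the 34 tested were higher in PLK2null tumors and 1 was lower. That is 41.2% called, beside 39.5% of all genes, and the list had a median difference of 0.28. The number called higher was 10 after quantile normalization and 9 with trimmed-mean rescaling. Among the called genes the largest difference was that of Errfi1, which encodes MIG6, a feedback inhibitor of ErbB kinases. Errfi1 was 1947 to 23606 in PLK2null and 985 to 11212 in p53null tumors, and 10 PLK2null tumors lay above every p53null tumor (difference, 1.58; SE, 0.301; limma adjusted p = 4.56e-05). Of the 12 inhibitors and turnover factors 5 rose, 1 fell and 6 were not called. The median difference of these 12 was 0.08, beside 0.10 for all genes tested, so the list as a whole was not shifted upward. Cbl, a ubiquitin ligase that marks EGFR for breakdown, was 3198 ± 876 (SD, n = 28) in PLK2null and 1752 ± 488 (SD, n = 13) in p53null tumors, and 24 of 28 PLK2null tumors lay above every p53null tumor (0.88; limma adjusted p = 7.59e-06). Its relative Cblb differed by 0.91 (limma adjusted p = 0.00148). Stub1, a ubiquitin ligase that works with chaperones, was 2041 ± 517 (SD, n = 28) and 3261 ± 1353 (SD, n = 13), a difference of -0.63 (limma adjusted p = 0.000396). Cblc, singled out after its values were seen, lay below the p53null median in all 28 PLK2null tumors but missed the threshold (-1.65; limma adjusted p = 0.0754), and without the 4 claudin-low tumors, which held 0 to 3.0, it was -1.49 (limma adjusted p = 5.05e-08).

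Of the 14 adaptors and docking proteins 6 rose (42.9%, beside 24.3% of all genes called higher and 39.5% called in either direction) and 0 fell by limma, and 6 had an unadjusted p below 0.05. Plcg1, the phospholipase docked by EGFR, differed by 0.71 (limma adjusted p = 0.00462), Gab2 by 0.68 (limma adjusted p = 0.0264) and Sos2, a RAS exchange factor, by 0.52 (limma adjusted p = 0.00190). Gab2 lost its call after quantile normalization (0.58, limma adjusted p = 0.0534) and with trimmed-mean rescaling (0.59, limma adjusted p = 0.0502). Without the 4 claudin-low tumors Plcg1 differed by 0.48 (limma adjusted p = 0.0170). Of the 4 sheddases and carriers 1 rose, Adam10, the protease that frees EGF and betacellulin, by 0.41 (limma adjusted p = 0.0433). Of the 5 further ligands 4 were tested and 1 rose. That was Nrg4, a neuregulin that binds ERBB4, at 28.3 to 148 in PLK2null and 8.32 to 69.6 in p53null tumors (1.32; limma adjusted p = 6.37e-06), and all 28 PLK2null tumors lay above the p53null median. Areg, which encodes amphiregulin, the EGFR ligand of duct growth, was 1.2 to 1442 in PLK2null and 3.98 to 6903 in p53null tumors (0.26; SE, 0.812; limma adjusted p = 0.831). With those 7 primary PLK2null tumors alone 4 pathway genes were called, Cbl, Nrg4, Socs4 and Sos1, beside 2942 of all 17050 genes in that fit. Errfi1 was 1.29 there (limma adjusted p = 0.0744).

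**Figure D5:**
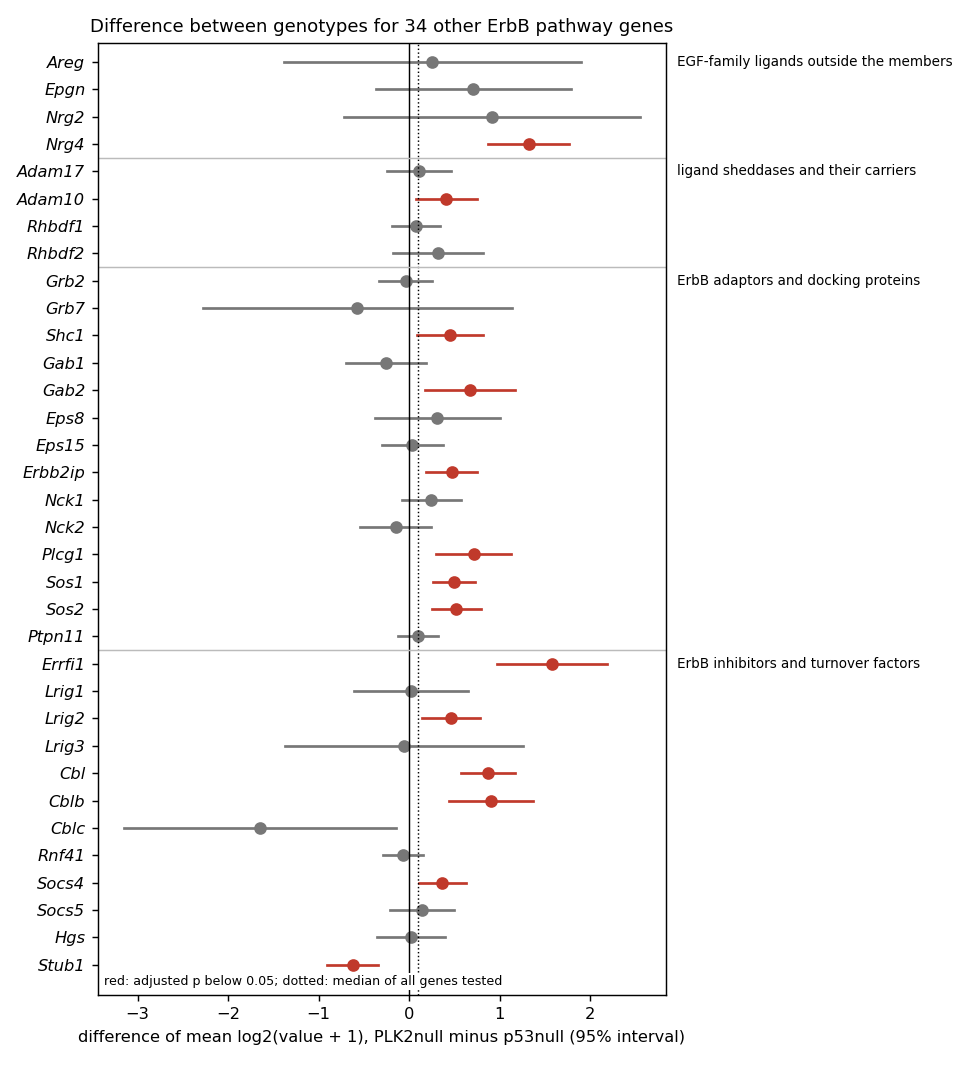
Difference of mean log2(value + 1), PLK2null minus p53null, with 95% intervals from limma for 34 other ErbB pathway genes in 4 lists, red where the adjusted p was below 0.05. Red points right of 0 number 13, and Stub1 at -0.63 is the single red point to the left.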

How the data were processed

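RNA-seq of 41 tumors (28 PLK2null, 13 p53null) was used, with genotype from the labels. Libraries were sequenced in pairs of 50 bp. Per the labels and the methods, the authors aligned reads to mm10 with STAR 2.7.6a, quantified genes with Salmon 1.4.0 and divided by the upper quartile; Picard 2.22.4 and SAMtools are also named in the submitters' processing notes. The deposited values are a linear signal (upper-quartile-normalised estimated counts), in which 1000 is the upper quartile of the values above 0. The gene annotation and strand setting were not given in the sources used here. Between 77.9 and 80.5% of nonzero values were within 0.1 of a whole number of reads, so reads were not recovered and no count model was used.

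Here log2(value + 1) was tested with limma 3.58.1 (R 4.3.3), without covariates, where the mean of a gene reached 10, with Benjamini-Hochberg adjustment over all 17208 genes and a threshold of 0.05. Erbb4 was tested by permutation over tumors (100000 resamples). Lengths and positions came from GENCODE vM21 (GRCm38). Other steps used Python 3.11.15, pandas 2.3.3 and numpy 2.4.6. On simulated data for this comparison, 57 of 97 genes changed by 1 and 80 of 94 changed by 2 on the log2 scale were called, with 6 unchanged genes, among 16752 tested. The simulated tumors were drawn independently, few genes were changed and no library series was included. It therefore checks the code and does not measure the error rate in these tumors. Chi-square over genes was computed for the most correlated pairs of tumors. Its median was lowest, 4.26, for PLK2null-1984 and PLK2null-7750, and was 4.62 for the most correlated pair, PLK2null-1986 and PLK2null-1985. These pairs differed beyond sampling noise, so no library among them appeared to be deposited repeatedly. Passages of the same tumor would also differ this much, and the labels do not name them, so each tumor was entered as 1 sample without being shown to be independent. The members and lists were chosen with earlier results of these data known. Named genes were all members, Plk2, the 8 called pathway genes with the largest difference, Areg, the 3 most similar genes of each tested member (predicted genes left out) and, where a tumor stood far above the rest, neighbours within 500 kb. Adam10, Socs4, Sos1, Cblc and Lrig3 were named after their values were seen. Erbin is listed under its older symbol Erbb2ip. Alternatives changed the pseudocount, filter, variance model, scaling and tumors.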

Additional observations from a re-analysis of the deposited data

How the results depend on the processing

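Leaving aside single tumors left out, alternatives kept the direction and the side of the threshold of 80 of 92 differences, and 31 of 40 counts stayed within 1.5 times their main value. Changing the filter or the variance model leaves the difference of a gene as it was, so the direction was fixed there. Most of the differences were of members not called in the main fit, so these totals are no measure of robustness. No paired analysis was possible because replicate numbers were given in accession order and pair no tumors across genotypes.

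Egf lost its call after quantile normalization (0.53) and with the 7 primary PLK2null tumors (0.45), and it could not be fitted at a mean of at least 50. With those 7 tumors Erbb3 changed sign to 0.15, Ereg to -0.59 and Erbb4 to 0.49. In that fit, with fewer tumors, genes called numbered 1972 higher and 970 lower of 17050, and pathway genes 4 higher and 0 lower (limma). Ereg was also negative with a pseudocount of 10 (-0.29) and after quantile normalization (-0.19), and Erbb4 was 0.073 with a pseudocount of 10. Without the 4 claudin-low tumors Hbegf was called (1.27). Without these and PLK2null-7763, chosen after seeing the data, Hbegf (1.34) and Erbb2 (-0.39) were called and Erbb3 was 0.048. Pathway genes lower in PLK2null numbered 2 with a pseudocount of 10, after quantile normalization and without the claudin-low tumors with or without PLK2null-7763, Cblc being the added gene. With the longest coding transcript as length, also chosen after seeing the data, Hbegf led in 19 tumors. The cause of these changes was not tested. Genes called higher and lower numbered 4175 and 2627, but 3425 and 3325 after quantile normalization and 3551 and 3295 with trimmed-mean (TMM) rescaling, so that the higher share was 61.4, 50.7 and 51.9%. Without a filter 5923 and 3130 were called of 33691.

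With single tumors left out, differences ranged from -0.84 to -0.31 for Egfr, -0.70 to -0.17 for Erbb2, -0.77 to -0.07 for Erbb3, 0.77 to 0.94 for Egf, 0.10 to 0.77 for Tgfa, 0.58 to 1.17 for Hbegf, -0.22 to 0.62 for Ereg, -1.39 to -0.82 for Btc, -1.01 to -0.64 for Nrg1 and -3.70 to -3.25 for Plk2. Ereg changed sign without 10 of the 41 tumors. Calls changed for Erbb2 and Hbegf (without T11) and for Btc (without p53null-5317). Genes called ranged from 3865 to 4312 higher and from 2426 to 2855 lower, and pathway genes from 10 to 13 higher and from 1 to 2 lower. Erbb4 was near the floor, and 23 tumors held 3 reads or fewer of it. It was 0.0 in p53null-5317, the library with the most fragments (70868124), and the part of depth was not tested.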

Other observations

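Lrig3, a gene of the inhibitor list, stood far above the rest in the tumor with the most Tgfa. This gene was singled out after its values were seen, and its action on ErbB receptors was not tested. It was 39352 in PLK2null-7748, 4228 in PLK2null-1971 and at most 1310 in the other tumors, with a median of 261 over the 41 (chr10:125966168-126015359). No tested gene lies within 500 kb of it, so its neighbours give no values.

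Neutrophil markers (5 genes) summed to a median of 1174 in PLK2null and 325 in p53null tumors, with ranges of 236 to 3011 and 123 to 3077, and their part in the differences of the ErbB genes was not tested. Basal epithelium markers (4 genes) had medians of 4986 and 26298 in the same order, and milk secretion markers (5 genes) 11157 and 946. Fibroblast markers (6 genes) had medians of 52596 and 59789, macrophage markers (5 genes) 12283 and 10382, T cell markers (5 genes) 182 and 211, B cell markers (5 genes) 31.7 and 51.5, skeletal muscle markers (5 genes) 40.6 and 92.3, and Schwann cell markers (5 genes) 15895 and 10630.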
